A study of Mus musculus with 21 samples.

Results

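The genes described are 42 that carry out DNA replication or drive the G1/S transition, out of 56980 genes in the count table. They were taken by symbol from a list of 42 names. Each name matched 1 row of the table, and all 42 were among the 18192 genes that passed the filter on low counts. The list holds the MCM helicase and the factors that load and activate it, DNA polymerases and primase, the sliding clamp with its loader, the single-strand binding and lagging-strand factors, enzymes of nucleotide supply, G1 cyclins with a CDK inhibitor and E2F factors, and the S phase genes Slbp and Uhrf1.

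They were measured by RNA-seq of cumulus-oocyte complexes (COCs) from ovaries of WT mice, each complex being an oocyte enclosed by its cumulus granulosa cells. The 7 groups had 3 libraries each, which the labels call biological replicates: untreated COCs at 0 h (START), COCs cultured for 4, 8 and 12 h with DMSO (CTL), and COCs cultured for 4, 8 and 12 h with 10 µM of a proprotein convertase inhibitor (PCI). All cultures shared a medium with 5% serum and epidermal growth factor. Libraries were made from polyadenylated RNA. The labels used here do not state the strain or age of the animals or the number of COCs in a library.

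Before S phase the origin recognition complex, with Cdc6 and Cdt1, loads the ring of Mcm2 to Mcm7 onto DNA, and Cdc45, the GINS complex and Mcm10 turn it into the active helicase. Cyclins D and E with their kinases release E2F factors, which raise transcription of most replication genes, while the inhibitor encoded by Cdkn1b holds these kinases back. Cumulus cells divide until the ovulatory signal and leave the cell cycle as the complex expands, whereas the oocyte resumes meiosis without replicating its DNA and stores RNA for the embryo. Because cumulus and oocyte RNA were sequenced together, fewer cells of a type and less RNA per cell cannot be told apart in these values.

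Libraries held 19458618 to 37491828 counts. Values are CPM, read counts put on a common library size with TMM factors, and a gene is called higher or lower in a comparison when the adjusted p of edgeR's quasi-likelihood F test is under 0.05. Replicates lay farther apart in START and in PCI at 4 h, where the median SD of log2 CPM over the members was 0.288 and 0.336, than in the other groups (0.14 to 0.193). Oocyte and cumulus markers were present in every group, the 10 cumulus markers with sums of 4843 to 11000 CPM in START and 12717 to 21882, 6129 to 8154 and 3237 to 3891 CPM in CTL at 4, 8 and 12 h. Of these 10 markers 4 were higher and 4 lower than in START at each time. The summed level of 20 oocyte markers was 18183, 11681 and 4537 CPM in the 3 START libraries and 8145, 18987 and 5270 CPM in PCI at 4 h. In CTL it was 7910 to 13058 CPM at 4 h, 5745 to 9638 CPM at 8 h and 2893 to 4375 CPM at 12 h. Among the oocyte markers 0, 8 and 14 of 20 were lower in CTL at 4, 8 and 12 h than in START, and what part this had in the members' changes was not tested.

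Mcm7, Cdc45, Gins2, Orc6, Rfc4, Rfc5, Lig1, Fen1, Ccne2, Ccnd1 and Ccnd3 overlap a gene on the opposite strand with at least 1000 counts over all libraries. A further 9, Orc1, Pcna, Rfc2, Pola1, Pold1, Pole, Prim2, Ccnd2 and Slbp, overlap opposite-strand genes whose highest total was 1 to 233 counts. The kit keeps strand, but no label or note states the strand setting of the counting, so reads of these members and of their partners may not be told apart.

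In control COCs most replication genes were at lower levels within 4 h of culture, and more of them by 12 h. At 4 h 24 of the 42 members were lower than in START, against 15.3% of all genes tested, and 1 was higher, against 16.2%. At 8 h 29 were lower (20.6% of all genes) and 2 higher (20.7%), and at 12 h 33 were lower (26% of all genes) and 1 higher (25.1%). The median log2 fold change of the members against START was -0.73, -0.83 and -1.21 at the 3 times, and that of all genes tested was -0.05, -0.08 and -0.06. The summed level of the members was 5467, 5370 and 5114 CPM in START replicates 1, 2 and 3 and 2208 to 2530 CPM in CTL at 12 h. These 3 comparisons share the START libraries, so their counts are not independent of each other. With any 1 library left out, 20 to 24, 28 to 30 and 32 to 36 members were called.

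**Figure D1:**
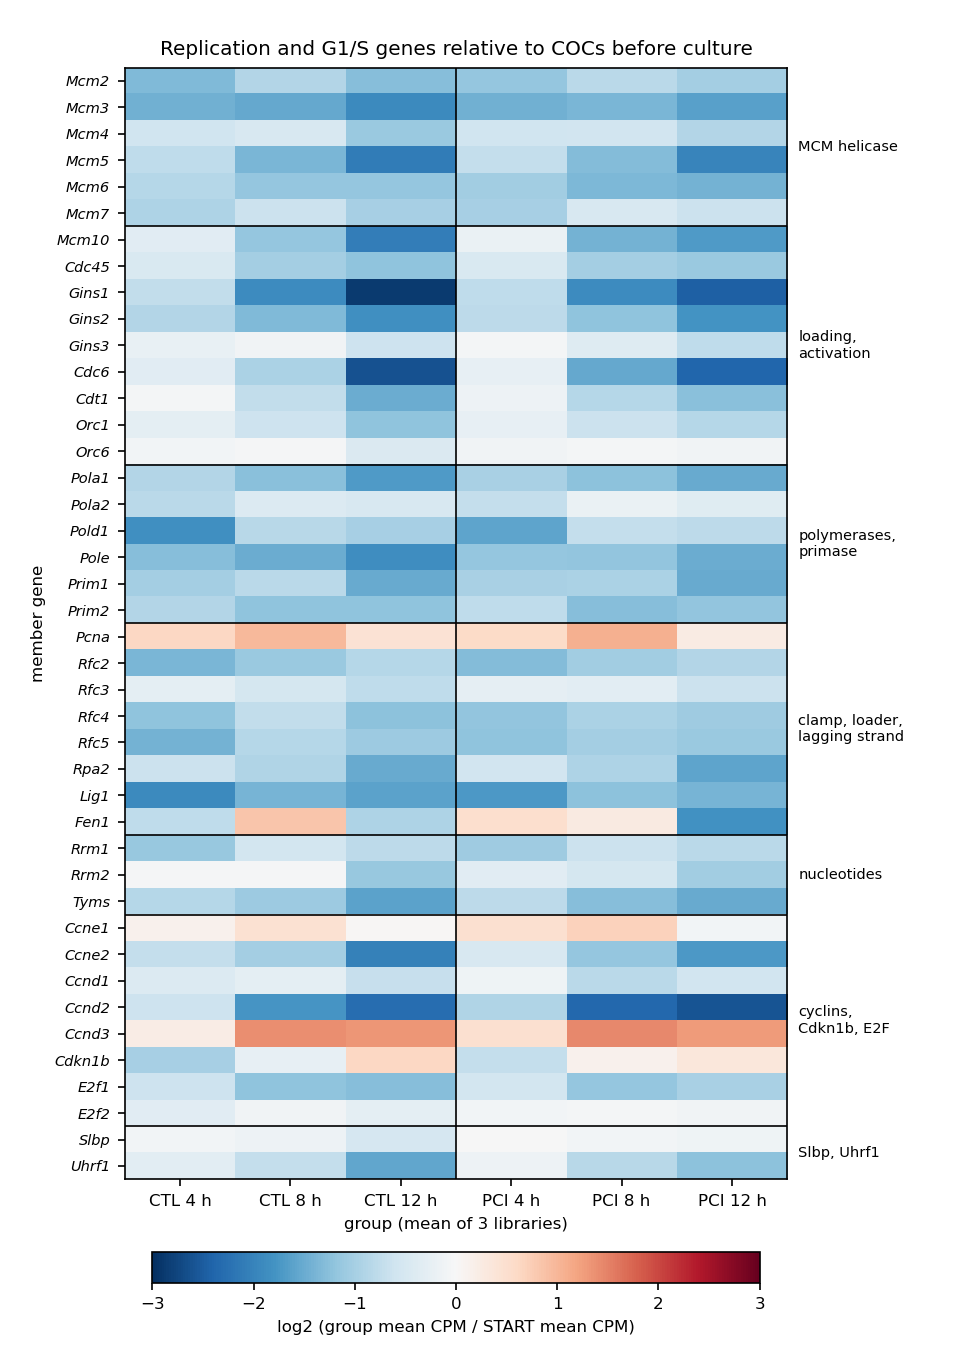
Each row is 1 of the 42 members, ordered by role, and each column a group of cultured COCs. Color gives the log2 ratio of the group's mean CPM (3 libraries) to the START mean, blue for lower and red for higher. Most rows are blue in all 6 columns, and Gins1, Cdc6, Ccnd2, Mcm5 and Mcm10 are darkest in CTL at 12 h. Pcna and Ccnd3 are red in all 6, and Ccne1, Cdkn1b and Fen1 in some.

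Sequence before the start site was searched in the members for E2F words on either strand. These were TTCCCGC, then with other letters in the middle also TTGGCGC, further the variant spelled TTCGCGC, and as the last of them TTGCCGC. The word CCAAT, which NF-Y recognizes, was searched on either strand too. The windows were the 250 bases before each RefSeq start on GRCm38.p6, another build than the mm39 of the counts, and words were allowed to overlap. Mcm4, Gins1, Gins2, Rfc2, Pole, Prim2, Ccne2, Ccnd1 and Ccnd2 had no window and were not searched. The other 33 of the 42 members matched the promoter table. An E2F word was found in 14 of these 33 (42.4%), against 9.01% of 27025 genes. CCAAT was found in 22 (66.7%), against 37.5%, and both words in 12 (36.4%), against 3.75%. A gene with several starts was counted once, and a match is only a match of letters. The stretches below belong to members whose values are given in every library and that hold an E2F word, shown in capitals with up to 20 bases on either side, 5′ to 3′ on the gene's strand.
Mcm5, chr8:75109325-75109386, plus strand: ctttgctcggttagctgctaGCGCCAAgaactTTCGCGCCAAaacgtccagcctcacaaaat
Cdc6, chr11:98907993-98908039, plus strand: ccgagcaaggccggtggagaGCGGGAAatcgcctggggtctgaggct
Prim1, chr10:128015180-128015214, plus strand: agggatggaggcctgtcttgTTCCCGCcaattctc
Rpa2, chr4:132768303-132768349, plus strand: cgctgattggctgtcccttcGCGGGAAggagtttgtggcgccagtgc
Rrm2, chr12:24708004-24708045, plus strand: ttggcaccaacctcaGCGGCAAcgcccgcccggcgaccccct
Uhrf1, chr17:56303269-56303315, plus strand: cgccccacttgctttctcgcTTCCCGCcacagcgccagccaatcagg
In Mcm5 the capitals hold 3 words, 2 of which overlap, at 164, 152 and 149 bases before the start. In Prim1 the word runs into a CCAAT at 15 bases before the start, and in Rrm2 it lies farthest away, at 235 bases.

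The MCM helicase, the ring that unwinds DNA at the fork, was lower as a whole: all 6 subunit genes were called lower in CTL at 4, 8 and 12 h. Their log2 fold changes against START were -1.43 to -0.60 at 4 h, -1.54 to -0.49 at 8 h and -2.10 to -1.0 at 12 h. Mcm5 (mm39 chromosome 8, 75836197 to 75855067) had 273, 289 and 285 CPM in START. Its CTL libraries had 146, 181 and 168 CPM at 4 h, 116, 107 and 103 CPM at 8 h and 69.1, 59.9 and 69.0 CPM at 12 h. No library of a later CTL time overlapped an earlier one. Mcm5 fell by 0.77 ± 0.12, 1.37 ± 0.12 and 2.10 ± 0.13 on the log2 scale (± SE, adjusted p = 5.85e-05, 6.5e-08 and 2.45e-10).

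Mcm3 (chromosome 1, 20873192 to 20890536) reached most of its decrease by 4 h. It had 155, 229 and 270 CPM in START, and its CTL libraries had 77.3, 85.2 and 79.9 CPM at 4 h. At 8 h it had 73.8, 75.1 and 75.6 CPM and at 12 h 55.7, 61.9 and 55.2 CPM. START lay above all cultured libraries but was itself spread widely. Mcm2 (chromosome 6, 88860456 to 88875762) fell by 1.32 ± 0.18 at 4 h, 0.88 ± 0.18 at 8 h and 1.28 ± 0.18 at 12 h. It had 291, 299 and 319 CPM in START, 94.1, 148 and 122 CPM at 4 h, 163, 154 and 177 CPM at 8 h and 135, 109 and 131 CPM at 12 h. The libraries of 8 h lay above those of 4 h without overlap, although that step was not called (adjusted p = 0.0809). Mcm4, Mcm6 and Mcm7 had mean levels of 257 ± 17.8, 376 ± 49.1 and 233 ± 52.3 CPM in START (SD, n = 3) and 119 ± 12.0, 170 ± 21.7 and 116 ± 2.06 CPM in CTL at 12 h. Per kilobase of exon the 6 subunits had 43.6 to 80.7 CPM in START, and in this scale only Uhrf1, Slbp and Rrm2 among the other members reached that range or lay above it.

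Of the genes that load and activate the helicase few were lower at 4 h and most at 12 h. Of the 9, 2 were lower than in START at 4 h, 6 at 8 h and 8 at 12 h, and none was higher. Cdc45 and Gins2 were the 2 called at 4 h, and Orc6, a subunit of the origin recognition complex, was not called at any time. Cdc6 (chromosome 11, 98798627 to 98814766), the ATPase that brings the helicase to the origin, had 75.3, 55.7 and 40.6 CPM in START. In CTL it had 40.1, 51.8 and 44.4 CPM at 4 h, 34.6, 22.3 and 31.4 CPM at 8 h and 8.49, 10.2 and 9.59 CPM at 12 h. The libraries of 4 h overlapped START, those of 8 h lay just below it, and those of 12 h stood far below all others. Its log2 fold changes were -0.33 ± 0.22 (adjusted p = 0.312), -0.96 ± 0.23 (0.00234) and -2.60 ± 0.24 (6.88e-08).

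Gins1 (chromosome 2, 150747320 to 150773200), a subunit of the GINS complex, had the largest decrease of the 42 members in CTL at 12 h. It had 26.5, 22.2 and 21.5 CPM in START, 13.5, 16.1 and 12.2 CPM at 4 h, 6.78, 5.01 and 7.29 CPM at 8 h and 3.15, 2.59 and 3.81 CPM at 12 h. The libraries separated at every time, and the log2 fold change was -0.75 ± 0.30 at 4 h (adjusted p = 0.063), -1.88 ± 0.31 at 8 h and -2.88 ± 0.32 at 12 h (adjusted p = 6.9e-07). Mcm10, which joins helicase and polymerase, and Cdt1, the loading factor, were also called lower at 8 and 12 h and not at 4 h. Mcm10 had mean levels of 104 ± 28.7, 82.7 ± 18.8, 46.9 ± 9.99 and 25 ± 1.33 CPM in START and in CTL at 4, 8 and 12 h. Cdt1 had 84.4 ± 29.5, 80.8 ± 9.51, 51.0 ± 4.69 and 29.9 ± 2.63 CPM.

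**Figure D2:**
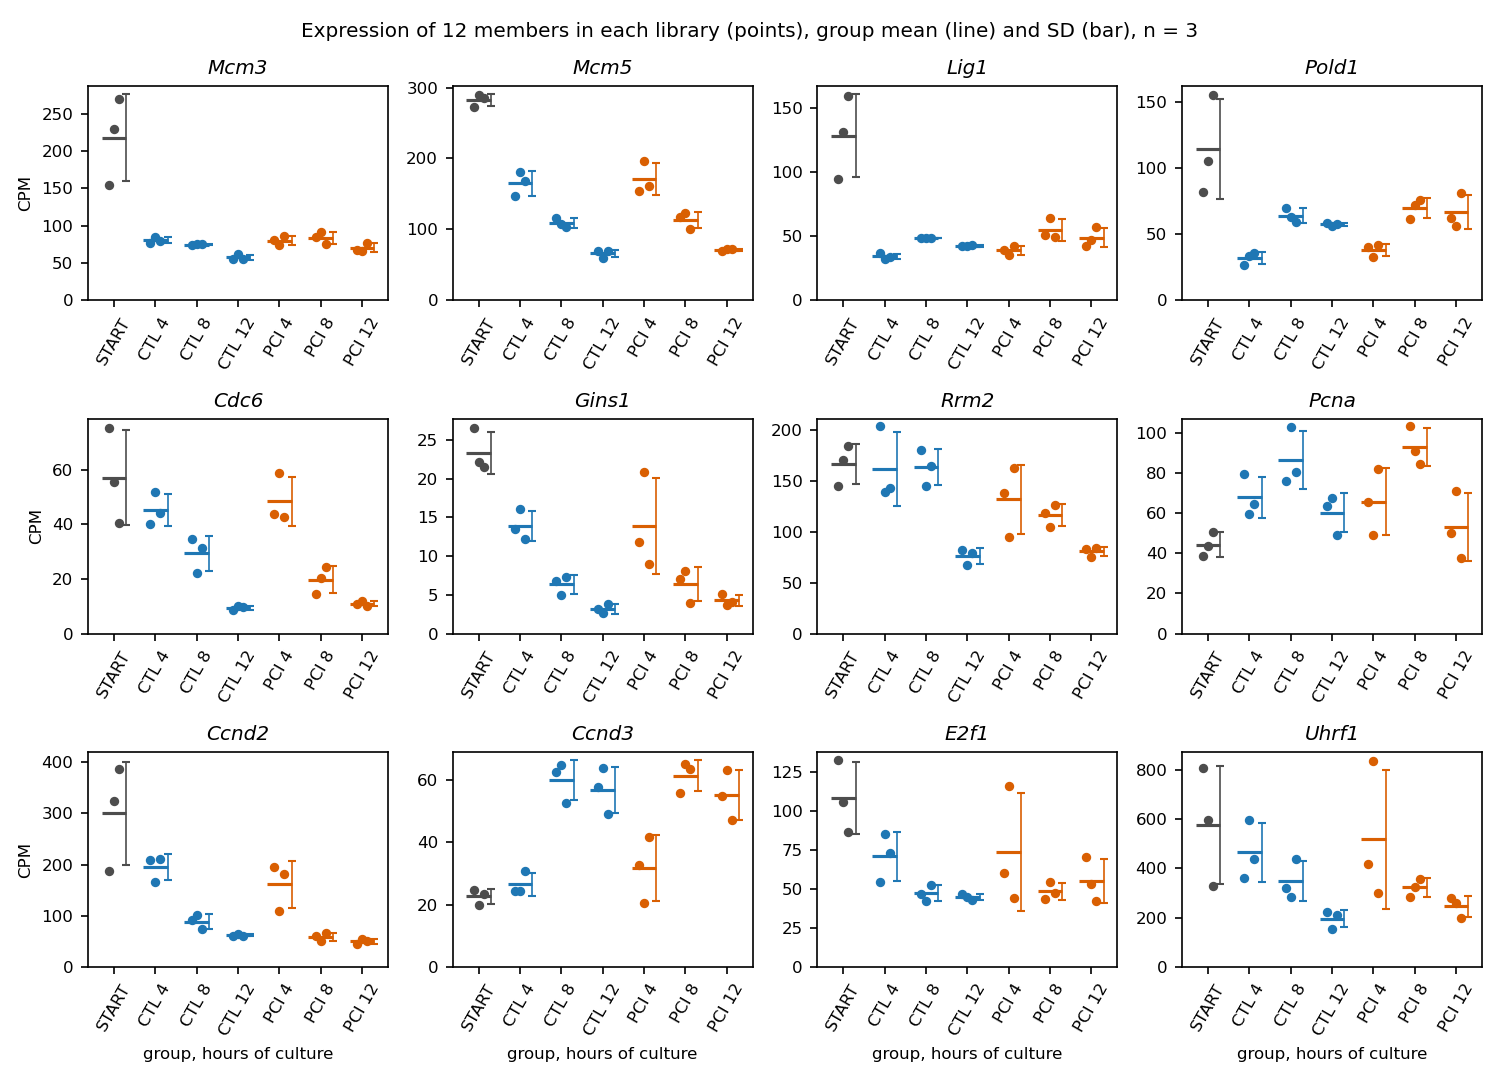
Expression in CPM (y axis, linear from 0) of 12 members in each library, by group and hours of culture (x axis). Points are libraries, the horizontal line is the mean and the bar 1 SD of 3 libraries. Mcm3, Lig1 and Pold1 are down at 4 h, Cdc6 and Rrm2 reach their low level at 12 h, Pcna and Ccnd3 rise, and PCI points overlap CTL points of the same time in most panels.

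DNA polymerase and primase genes were lower at all times, 6 of 6 at 4, 8 and 12 h. Pold1, the catalytic subunit of polymerase delta, had its lowest level at 4 h, with a mean of 114 ± 37.6 CPM in START. The CTL means were 32.1 ± 4.49, 64.1 ± 5.57 and 57.4 ± 0.983 CPM at 4, 8 and 12 h. It fell by 1.83 ± 0.20 at 4 h and then rose by 1.00 ± 0.20 from 4 to 8 h (adjusted p = 0.00153). Pole (chromosome 5, 110434172 to 110485340), the catalytic subunit of polymerase epsilon on the leading strand, had 41.7, 68.1 and 56.2 CPM in START. In CTL it had 18.9, 26.0 and 23.6 CPM at 4 h, 18.6, 19.9 and 21.1 CPM at 8 h and 13.4, 13.6 and 18.3 CPM at 12 h. All cultured libraries lay below START, and Pole fell by 1.28 ± 0.21, 1.48 ± 0.21 and 1.87 ± 0.22.

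Prim1 (chromosome 10, 127851037 to 127865906), the primase subunit that makes the RNA primer, had 39.2, 37.2 and 43.3 CPM in START. In CTL it had 18.5, 21.3 and 18.9 CPM at 4 h, 23.1, 23.2 and 21.6 CPM at 8 h and 12.7, 15.3 and 13.8 CPM at 12 h. Levels dropped in steps, first by 4 h and again between 8 and 12 h, and the log2 fold changes against START were -1.03 ± 0.15, -0.82 ± 0.15 and -1.52 ± 0.15 (adjusted p at 12 h = 2.25e-07). Pola1, Pola2 and Prim2 had log2 fold changes of -1.69 ± 0.22, -0.49 ± 0.15 and -1.22 ± 0.20 at 12 h.

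The clamp group split. Of its 8 genes 5, 6 and 6 were lower at 4, 8 and 12 h, while Pcna was higher at 4 and 8 h. Lig1 (chromosome 7, 13011239 to 13045350), the ligase that joins Okazaki fragments, had 94.9, 131 and 160 CPM in START, and its CTL libraries had 36.8, 32.4 and 33.6 CPM at 4 h. It had 48.9, 49.0 and 48.7 CPM at 8 h and 42.2, 42.1 and 43.0 CPM at 12 h. The cultured libraries lay far below START at every time, lowest at 4 h, and Lig1 fell by 1.91 ± 0.17, 1.39 ± 0.17 and 1.60 ± 0.17 (adjusted p = 5.35e-08, 1.97e-06 and 3.04e-07). The clamp loader genes Rfc2, Rfc4 and Rfc5 were lower at all 3 times, with log2 fold changes of -1.37 ± 0.13, -1.22 ± 0.19 and -1.41 ± 0.15 at 4 h, and Rfc3 was lower at 8 and 12 h.

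Rpa2 (chromosome 4, 132495643 to 132506063), a subunit of the protein that covers single-stranded DNA, had 89.5, 104 and 104 CPM in START. In CTL it had 65.3, 62.8 and 61.4 CPM at 4 h, 57.4, 51.6 and 50.8 CPM at 8 h and 35.2, 35.8 and 32.9 CPM at 12 h. Each time lay below the one before without overlap, and Rpa2 fell by 0.65 ± 0.13, 0.89 ± 0.13 and 1.51 ± 0.13. Fen1, the flap endonuclease, had group means of only 0.153 to 0.961 CPM, with 3 to 50 counts per library, and no call. Tmem258 overlaps it, and what part this had was not tested.

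Pcna (chromosome 2, 132091082 to 132095234), the sliding clamp that holds polymerases on DNA, rose. It had 38.8, 43.7 and 50.9 CPM in START. Its CTL libraries had 79.6, 59.9 and 64.5 CPM at 4 h and 75.9, 103 and 80.9 CPM at 8 h. At 12 h it had 63.6, 67.8 and 49.4 CPM. The libraries of 4 and 8 h lay above START and those of 12 h overlapped it. The log2 fold changes were 0.61 ± 0.22 (adjusted p = 0.0393), 0.96 ± 0.22 (0.00183) and 0.44 ± 0.22 (0.103). With library size alone as the scale the value at 4 h was 0.49 (adjusted p = 0.0992), and the call at 4 h was lost too with only the libraries compared and without any of START replicates 1 and 2 and CTL replicates 1 and 3.

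In nucleotide supply the genes moved at different times. Tyms (chromosome 5, 30263200 to 30278615), thymidylate synthase, had 95, 94.6 and 92.7 CPM in START. Its CTL libraries had 45.9, 60.3 and 49.0 CPM at 4 h, 44.1, 42.5 and 45.9 CPM at 8 h and 31.9, 32.3 and 27.9 CPM at 12 h. START lay well above every cultured library, and Tyms fell by 0.86 ± 0.16, 1.09 ± 0.16 and 1.62 ± 0.17. Rrm2 (chromosome 12, 24758240 to 24764145), the regulated subunit of ribonucleotide reductase, kept its level until 8 h. It had 145, 171 and 185 CPM in START, 204, 139 and 143 CPM at 4 h, 181, 145 and 165 CPM at 8 h and 82, 67.2 and 79.0 CPM at 12 h. The first 3 times overlapped and 12 h lay below them all. Its log2 fold changes against START were -0.04 ± 0.18, -0.03 ± 0.18 and -1.13 ± 0.18 (adjusted p at 12 h = 4.87e-05). Rrm1, the large subunit of the same enzyme, was lower at all 3 times, with mean levels of 257 ± 62.1 CPM in START and 116 ± 9.04, 177 ± 5.23 and 149 ± 20.3 CPM in CTL.

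G1 cyclins moved in opposite directions. Of the 8 genes with cyclins, inhibitor and E2F factors 3 were lower at each time, against 15.3%, 20.6% and 26% of all genes tested. These were Ccnd2, Ccne2 and Cdkn1b at 4 h and Ccnd2, Ccne2 and E2f1 at 8 and 12 h. Ccnd3 was higher at 8 and 12 h. Ccnd2 (chromosome 6, 127102125 to 127129156), the cyclin D of proliferating granulosa cells, had 188, 325 and 387 CPM in START, and its CTL libraries had 209, 166 and 211 CPM at 4 h. At 8 h it had 91.1, 101 and 73.4 CPM and at 12 h 60.6, 63.8 and 61.0 CPM. The libraries of 4 h overlapped START, and those of 8 and 12 h lay below it. The log2 fold changes were -0.62 ± 0.23 (adjusted p = 0.045), -1.76 ± 0.23 (7.52e-06) and -2.28 ± 0.24 (3.2e-07). The call at 4 h was lost with the replicate block, with only the libraries compared and when any of START replicates 2 and 3 and the CTL replicates was left out, where adjusted p reached 0.312.

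Ccnd3 (chromosome 17, 47815976 to 47910616), a cyclin D found in many differentiating tissues too, had 24.7, 20.0 and 23.4 CPM in START, and its CTL libraries had 24.5, 24.3 and 30.7 CPM at 4 h. At 8 h it had 62.6, 64.9 and 52.7 CPM and at 12 h 57.8, 63.8 and 49.1 CPM. The libraries of 8 and 12 h stood apart above the earlier ones, and Ccnd3 rose by 1.40 ± 0.20 (adjusted p = 2.14e-05) and 1.33 ± 0.20 (2.85e-05). Per kilobase of exon, Ccnd2 had 31.9 CPM and Ccnd3 2.59 CPM in START, against 6.57 and 6.48 CPM in CTL at 12 h. The gap between both cyclins was wide at the start and nearly closed at the end. Ccnd1 had 0.232 to 0.375 CPM in START and CTL and no call.

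Ccne2 (chromosome 4, 11191351 to 11204779), a cyclin E that starts S phase, had 41.5, 32.6 and 32.0 CPM in START. In CTL it had 24.0, 25.4 and 15.7 CPM at 4 h, 15.2, 17.5 and 19.7 CPM at 8 h and 9.09, 8.58 and 8.28 CPM at 12 h. Every cultured library lay below START, and Ccne2 fell by 0.71 ± 0.20, 1.02 ± 0.20 and 2.03 ± 0.20 (adjusted p at 12 h = 1.92e-07). The call at 4 h was lost without START replicate 1, without CTL replicate 3 and with only the libraries compared (adjusted p up to 0.0737). Its paralog Ccne1 was not called, with a START mean of 9.86 ± 1.32 CPM and a CTL mean of 10.2 ± 0.385 CPM at 12 h.

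E2f1 (chromosome 2, 154401327 to 154411812), the activating E2F factor, had 133, 106 and 86.3 CPM in START, 54.2, 85.0 and 73.0 CPM at 4 h, 46.6, 42.3 and 52.3 CPM at 8 h and 46.9, 45.0 and 43.1 CPM at 12 h. All CTL libraries lay below START, and the log2 fold changes were -0.61 ± 0.27 (adjusted p = 0.0949), -1.20 ± 0.27 (0.00171) and -1.27 ± 0.27 (0.000792). E2f2 was not called at any time. Cdkn1b (chromosome 6, 134897364 to 134902476), the gene of the CDK inhibitor p27, was low throughout. It had 3.42, 2.23 and 3.34 CPM in START, 1.52, 1.48 and 1.54 CPM at 4 h, 2.46, 2.42 and 2.66 CPM at 8 h and 3.82, 4.93 and 5.04 CPM at 12 h. It was below START at 4 h and above it at 12 h without overlap. The fall of 0.98 ± 0.30 at 4 h was called (adjusted p = 0.0153), whereas the value of 0.61 ± 0.29 at 12 h was not (adjusted p = 0.0851). The call at 4 h was lost without START replicate 1 or 3, without CTL replicate 1, with only the libraries compared and without the filter, where adjusted p was highest at 0.121.

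Slbp and Uhrf1 had the highest levels per kilobase of exon, 95.5 and 135 CPM in START. Uhrf1 (chromosome 17, 56610321 to 56630486), which directs the maintenance DNA methyltransferase to newly copied DNA, had 808, 596 and 327 CPM in START. In CTL it had 363, 598 and 439 CPM at 4 h, 322, 284 and 440 CPM at 8 h and 223, 155 and 210 CPM at 12 h. The wide START libraries were overlapped at 4 and 8 h and lay above those of 12 h, and the log2 fold changes were -0.31 ± 0.33, -0.73 ± 0.33 and -1.56 ± 0.34 (adjusted p = 0.584, 0.0858 and 0.000792). Slbp (chromosome 5, 33792296 to 33809918), which binds the stem-loop of replication-dependent histone RNAs, had 878, 552 and 309 CPM in START, 519, 657 and 473 CPM at 4 h, 504, 490 and 579 CPM at 8 h and 467, 378 and 372 CPM at 12 h. All times overlapped START and no change was called (log2 fold change at 12 h -0.52 ± 0.30, adjusted p = 0.168).

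**Figure D3:**
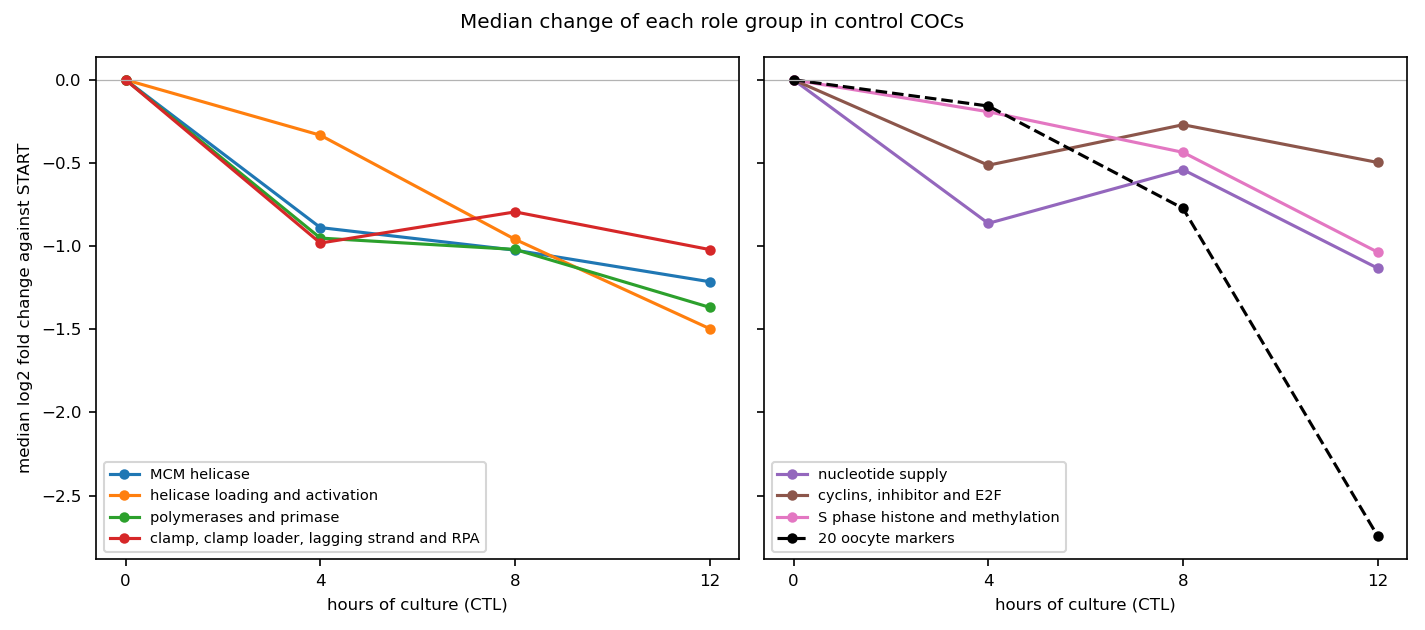
Median log2 fold change against START (y axis) over hours of CTL culture (x axis) for the 7 role groups in 2 panels, with the 20 oocyte markers as a dashed line. MCM, polymerase and clamp groups reach -0.89 to -0.98 by 4 h, loading and activation genes reach -0.33 at 4 h and -1.50 at 12 h, and oocyte markers fall mainly between 8 and 12 h.

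From 4 to 8 h of control culture 5 members were higher (12.1% of all genes tested) and 6 lower (11.1%), both near the share of all genes. Those that rose were Ccnd3 by 1.18 ± 0.20, Pold1 by 1.00 ± 0.20, Rrm1 by 0.61 ± 0.17, Rfc5 by 0.57 ± 0.14 and Lig1 by 0.51 ± 0.16. Those that fell were Ccnd2 by 1.14 ± 0.23, Gins1 by 1.13 ± 0.30, Mcm10 by 0.82 ± 0.26, Cdt1 by 0.66 ± 0.23, Mcm5 by 0.60 ± 0.12 and Cdc45 by 0.56 ± 0.14. With library size alone as the scale 8 were higher and 4 lower, and without CTL replicate 2 of 8 h 6 were called in all, or 7 without CTL replicate 3 of 4 h. The call of Lig1 was lost in 5 of 12 alternatives, namely without the filter, without any of the CTL replicates of 4 h and without CTL replicate 2 of 8 h. That of Gins1 was lost in 2, without CTL replicate 2 of 4 h or of 8 h.

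From 8 to 12 h 11 members were lower (4.17% of all genes tested) and 0 higher (4.63%). Cdc6 fell most among them, by 1.64 ± 0.23 (adjusted p = 0.000574), then Rrm2 by 1.11 ± 0.18 and Ccne2 by 1.01 ± 0.20. Gins1, Mcm10, Cdt1, Mcm5, Prim1, Mcm4, Rpa2 and Tyms fell by 1.00 to 0.53. The calls of Gins1 (adjusted p = 0.048) and Tyms (0.0498) lay at the threshold and were lost in 6 and 7 of 12 alternatives, and that of Prim1 was lost without the filter. Without 1 library 6 to 9 members were called, 6 of them without CTL replicate 3 of 8 h and also 6 without CTL replicate 2 of 12 h, and 7 without any of CTL replicate 1 of 8 h and CTL replicates 1 and 3 of 12 h.

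With the inhibitor of proprotein convertases no member was called different from control at the same time. Such convertases, furin for example, release mature proteins from precursors, and the study is about their part in the matrix and behavior of cumulus cells through the oocyte factor GDF-9. Between PCI and CTL 0 of 42 members were called at 4 h, 0 at 8 h and 0 at 12 h, against 0.132%, 3.67% and 1.98% of all genes tested, with edgeR and also with DESeq2. At an unadjusted p under 0.05 there were 0, 3 and 1 members, against 4.99%, 14.3% and 10.8% of all genes. The median log2 difference of PCI from CTL was 0.08, -0.01 and 0.14 over the members and 0.04, -0.02 and 0.03 over all genes.

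A missed threshold does not show equal levels, so the 95% intervals of the log2 difference are given. They lay within -1 to 1 (2-fold) for 40 members at 4 h, 38 at 8 h and 36 at 12 h. The exceptions were Fen1 and Ccnd1 at all times, Cdc6 and Ccnd2 at 8 h, and Gins1, Orc1, Slbp and Uhrf1 at 12 h. Intervals within a 1.5-fold difference were fewer, with 25, 23 and 18 members at 4, 8 and 12 h. Each interval covers 1 gene at 1 time without adjustment for the number of genes, so they do not bound the members jointly. In counts simulated for PCI against CTL at 8 h, 38.8% of genes changed 2-fold were recovered. These were drawn from all genes above a count minimum, so the share is not one for the members. The median SD of log2 CPM in CTL and PCI at 8 h was 0.145 and 0.162 over the members. Over all genes tested it was 0.254 and 0.267. For Mcm5 the PCI libraries had 155, 197 and 161 CPM at 4 h, 117, 123 and 101 CPM at 8 h and 69.4, 71.6 and 72.3 CPM at 12 h. They overlapped CTL at 4 and 8 h, and at 12 h they lay just above it. The differences were 0.05, 0.06 and 0.11, with intervals of -0.21 to 0.30, -0.19 to 0.32 and -0.15 to 0.36.

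**Figure D4:**
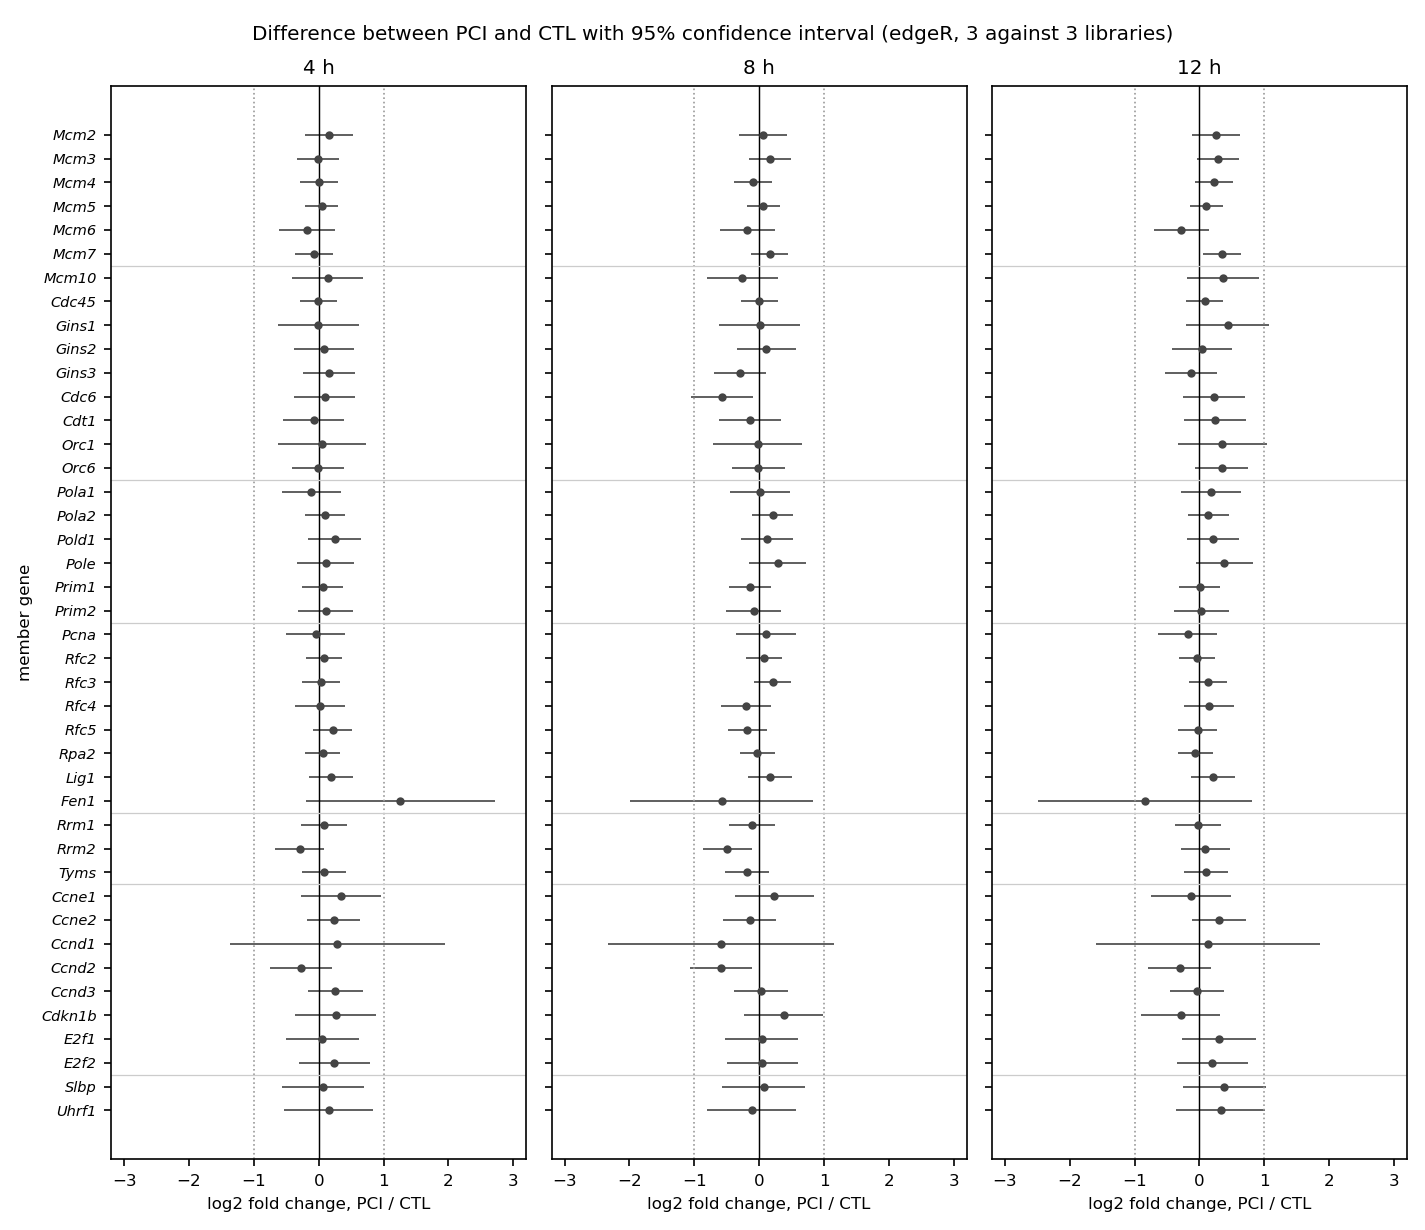
Log2 fold change of PCI over CTL (x axis) at 4, 8 and 12 h for each of the 42 members (y axis, by role), as points with 95% confidence intervals from the edgeR fit. Dotted lines mark -1 and 1. Points cluster around 0, and intervals of 40, 38 and 36 members stay between the dotted lines.

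Cdc6 had 43.7, 59.0 and 42.7 CPM in PCI at 4 h and 11.0, 11.8 and 10.1 CPM at 12 h. It was low at the end of culture as in CTL, where the 12 h libraries had 8.49 to 10.2 CPM. Gins1 had 11.8, 20.8 and 9.00 CPM in PCI at 4 h, 7.07, 8.14 and 3.90 CPM at 8 h and 5.12, 3.66 and 4.08 CPM at 12 h. Pcna had 65.8, 49.1 and 82.4 CPM, 104, 91.3 and 84.6 CPM and 50.4, 71.2 and 37.5 CPM at the same times, highest at 8 h as in CTL. Ccnd3 had 32.6, 20.6 and 41.8 CPM at 4 h, 55.7, 65.3 and 63.5 CPM at 8 h and 55.1, 63.4 and 47.1 CPM at 12 h, and all 3 times overlapped CTL. Lig1 had 39.4, 35.4 and 42.2 CPM at 4 h, 50.8, 64.6 and 49.5 CPM at 8 h and 42.3, 47.4 and 56.9 CPM at 12 h. At 8 h the lowest PCI library of Lig1 lay just above the highest CTL library, and at the other times the groups overlapped. E2f1 had 60.3, 116 and 43.9 CPM at 4 h, 43.6, 54.4 and 47.3 CPM at 8 h and 70.4, 53.0 and 42.4 CPM at 12 h. Its values overlapped CTL at every time and were spread most at 4 h.

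The members with an unadjusted p under 0.05 at 8 h were Cdc6, Rrm2 and Ccnd2, all 3 with lower values in PCI. Cdc6 had 14.7, 20.3 and 24.3 CPM in PCI at 8 h against 34.6, 22.3 and 31.4 CPM in CTL. The groups overlapped, and the difference was -0.57 ± 0.23 (interval -1.05 to -0.10, adjusted p = 0.222). Rrm2 had 118, 105 and 126 CPM in PCI against 181, 145 and 165 CPM in CTL, without overlap, a difference of -0.49 ± 0.18 (adjusted p = 0.179). Ccnd2 had 60.1, 50.1 and 65.8 CPM against 91.1, 101 and 73.4 CPM, again without overlap, a difference of -0.59 ± 0.23 (adjusted p = 0.206). At 12 h the difference of Cdc6 was 0.22 ± 0.23, that of Rrm2 0.09 ± 0.18 and that of Ccnd2 -0.31 ± 0.23.

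At 12 h the member with an unadjusted p under 0.05 was Mcm7, with 154, 129 and 162 CPM in PCI and 118, 118 and 114 CPM in CTL. The groups did not overlap, and the difference was 0.35 ± 0.14 (adjusted p = 0.312). Groups did not overlap for 1, 7 and 10 of the 42 members at 4, 8 and 12 h, against 7.28%, 23.2% and 21.2% of all genes tested, so these counts stood near or below the shares of all genes. At 12 h all 6 polymerase and primase genes and 5 of 6 MCM genes had a log2 difference above 0, with medians of 0.16 and 0.25. In the same comparison 3 of 8 clamp genes were above 0 with a median of -0.03, 4 of 8 in the cyclin and E2F group with a median of 0.05, and 8 of 9 loading and activation genes with a median of 0.24, none called. Of all 42 members 30 were above 0. The median of all genes tested was itself above 0, at 0.03, and their share above 0 was not counted. Among other cell types, 2 of 4 markers of mural granulosa cells were higher in PCI at 12 h, and the list summed to 188 to 504 CPM in PCI and 28.5 to 45.0 CPM in CTL. All 20 oocyte markers had a log2 difference above 0 at 12 h, with a median of 0.48 and none called. What part either list had in the members' values was not tested.

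The change of the PCI effect over time was called for 0 members, against 0.0605% of all genes tested. At an unadjusted p under 0.05 there was 1, Cdc6, against 6.83% of all genes. Its PCI effect at 8 h minus that at 4 h was -0.67 ± 0.32, and that at 12 h minus that at 8 h was 0.80 ± 0.32. Within PCI cultures, from 4 to 8 h 6 members were higher (12.3% of all genes) and 9 lower (15.2%). Pold1, Ccnd3, Cdkn1b, Pola2, Lig1 and Mcm7 rose by 0.88, 0.96, 0.84, 0.51, 0.50 and 0.50. Ccnd2, Cdc6, Mcm10 and Gins1 fell most, by 1.46 ± 0.23, 1.29 ± 0.23, 1.21 ± 0.27 and 1.12 ± 0.30, and Cdt1, Ccne2, Mcm5, Cdc45 and Tyms fell by 0.72 to 0.51. Of these calls, in 12 alternatives, Cdkn1b lost its call in 6 (adjusted p up to 0.228), Lig1 and Tyms in 5, Ccne2 in 4 and Gins1 in 3. Without PCI replicate 2 of 4 h, the library with the highest oocyte marker sum, 9 members were called. From 8 to 12 h 0 members were higher (1.38% of all genes) and 2 lower (0.995%): Mcm5 by 0.68 ± 0.12 and Rpa2 by 0.65 ± 0.13. The call of Rpa2 was lost without the filter and without PCI replicate 2 of 12 h.

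The replicates of START and of PCI at 4 h were farthest apart in their oocyte marker sums. In START the libraries were ordered as the marker sum in 13 of 42 members (31%), against 29.5% of all genes tested. The order was reversed in 16 (38.1%), against 36%. In PCI at 4 h 19 members (45.2%) had the order of the sum, against 29.7%, and 11 (26.2%) its reverse, against 27.8%. In 11 of 42 members (26.2%) the libraries of both groups were ordered as the marker sum, against 20.1% of all genes tested, and in 8 (19%) both orders were reversed, against 17.4%. Over the 5 other groups 1 of the 11, Uhrf1, kept the order throughout and 1, Cdc6, was reversed in some group. Of the 8, 0 kept theirs throughout and 4 were reversed in some group, namely Mcm3, Pola2, Pold1 and Rrm2. Uhrf1 had 808, 596 and 327 CPM in START where the marker sum was 18183, 11681 and 4537 CPM, and 418, 838 and 301 CPM in PCI at 4 h where it was 8145, 18987 and 5270 CPM. Median log2 fold changes against START in CTL at 4, 8 and 12 h were -0.33, -0.96 and -1.50 for those 11 members. They were -1.18, -0.64 and -1.06 for the 8 and -0.77, -0.85 and -1.11 for the other 23. The sort used the START libraries, which are also the baseline of these changes. Medians of all genes sorted in the same way were not taken, so those of the members have no background beside them. The 11 included Mcm10, Gins1, Cdc6, Cdt1, Orc1 and Orc6 of the loading and activation genes. Orders of 3 libraries are a description, and what part oocyte RNA had was not tested.

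Of 42 other replication genes that are not members, 22, 23 and 32 were lower than in START at 4, 8 and 12 h, against 15.3%, 20.6% and 26% of all genes tested, and 1, 2 and 3 were higher, against 16.2%, 20.7% and 25.1%. The calls left out 19, 17 and 7 of them. At 12 h the smallest p-values among them were those of Tipin, a fork protection factor, at -1.65 ± 0.14, Chaf1a, a histone chaperone subunit, at -2.49 ± 0.27, Pold2, a subunit of polymerase delta, at -1.27 ± 0.14, and Mcm8, a helicase of recombination, at -1.59 ± 0.19. None of the 42 was called between PCI and CTL, and 2, 2 and 4 had an unadjusted p under 0.05. Among 8 proliferation genes outside replication, such as Mki67 and Top2a, 5, 6 and 7 were lower and 0 higher.

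Of 29 other G1/S control genes tested, 9, 4 and 13 were lower and 5, 7 and 5 higher at 4, 8 and 12 h, to be read beside the same shares of all genes. Cdkn1a, the gene of the CDK inhibitor p21, had 26.6 ± 12.2 CPM in START and 158 ± 41.5, 75.9 ± 12.5 and 95.9 ± 24.5 CPM in CTL (SD, n = 3), rises of 2.57 ± 0.29, 1.51 ± 0.28 and 1.85 ± 0.29. Cdkn2b, which encodes the inhibitor p15 of cyclin D kinases, had 0.488 ± 0.186 CPM in START and 11.5 ± 0.682 CPM at 12 h, a rise of 4.55 ± 0.47. Ccna2, the S phase cyclin A, and E2f6, a repressing E2F, fell by 1.13 ± 0.17 and 1.07 ± 0.18 at 12 h. Cdk6, a kinase partner of cyclin D, was the only gene of either list called between PCI and CTL. It had 25.9 ± 3.79 CPM in CTL and 13.9 ± 0.815 CPM in PCI at 8 h, a difference of -0.90 ± 0.17 (adjusted p = 0.00473). At 4 h it had 21.4 ± 3.25 CPM in CTL and 14.6 ± 0.855 CPM in PCI. At 12 h the values were 22.5 ± 1.29 and 14.8 ± 1.28 CPM, and the PCI libraries lay below those of CTL at every time.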

How the data were processed

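The deposited values are raw read counts per gene, made by the authors from 21 libraries of a stranded, poly(A)-selecting kit. The submitters' processing notes name cutadapt, STAR, HTSeq and the mm39 build. No version, annotation release or strand setting was given in these sources. Gene positions are those of the deposited table.

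Counts were filtered with filterByExpr, which left 18192 genes (99.92% of counts or more per library), and were scaled with TMM factors of 0.931 to 1.09. All 21 libraries entered 1 edgeR fit with 7 group means and 14 residual degrees of freedom, in edgeR 4.0.16 (R 4.3.3, limma 3.58.1). Comparisons were tested two-sided with the robust quasi-likelihood F test, and p-values were adjusted by Benjamini-Hochberg over all genes tested. SE was taken as the absolute log2 fold change divided by √F. The biological coefficient of variation was 29.5%. Chi-square per degree of freedom between replicates of a group was 23.6 to 289, so no library was a copy of another in its group. All 21 libraries were kept. Levels per kilobase used summed exon length from GENCODE vM21, and promoter sequences came from RefSeq (GRCm38.p6).

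Members are named with values in every library by rule: the 2 with the smallest p of each role group in CTL at 12 h against START, any called against its group's direction, and Mcm2, Pcna, Ccnd2, Cdkn1b, E2f1 and Uhrf1. Of each other list the 4 with the smallest p are named. Pold1, Mcm7 and the members of unadjusted p under 0.05 were added after their values were seen. Members and lists were chosen with earlier results of these data known. Replicate numbers recur in all groups. Same-numbered PCI and CTL libraries deviated together at 4 h (correlation 0.143 to 0.524) and 8 h (0.108 to 0.267). At 12 h the correlation was 0.0424 to 0.227. In counts simulated for PCI against CTL at 8 h (17830 genes, 200 changed), 2.99%, 38.8% and 90.9% of genes changed 1.5-, 2- and 4-fold were recovered. The changed genes were drawn from all genes above a count minimum, not from the members alone. Alternatives were RLE size factors, library size alone, no filter, DESeq2 1.42.0, a replicate block, only the groups compared, and each library left out. Red cell, theca, leukocyte, endothelium and stroma markers were summed as well and summed to at most 163 CPM in any library.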

Additional observations from a re-analysis of the deposited data

How the results depend on the processing

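The counts of members called against START kept within 1.5 times under every alternative run, and no called value of a named member reversed its sign. Uncalled values of named members changed sign in some alternatives, 68 times with 1 library left out. Of 67 called values of named members 52 were called under all alternatives and 15 lost the call under some, mainly where adjusted p was near 0.05. From 4 to 8 h in PCI 15 members were called, but 8 without the filter and 7 with only the libraries compared. From 8 to 12 h in CTL 11 were called, but 20 with only the libraries compared. From 8 to 12 h in PCI 2 were called, but 5 with only the libraries compared and 5 with DESeq2. The cause was not tested. Leaving out 1 library gave 20 to 24, 28 to 30 and 32 to 36 calls against START, 6 to 10 and 6 to 9 for the CTL steps, 9 to 21 and 2 to 2 for the PCI steps, and 0 for PCI against CTL and for its change over time.

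With the replicate block 24, 31 and 34 members were called against START, 12 and 12 in the CTL steps, 15 and 2 in the PCI steps and 0 between PCI and CTL. The block ended the calls of Ccnd2 at 4 h and of Gins1 from 8 to 12 h. Deviations of same-numbered libraries correlated at 0.108 or above in every pair of PCI and CTL at 4 and 8 h and of CTL at 8 and 12 h. In the other comparisons the lowest correlation was -0.277 to 0.0424, and in some of them every pair was positive. Whether the replicate numbers pair the libraries there was not tested.

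Over all genes, calls between PCI and CTL at 4 h numbered 24, but 46 without the filter, 0 with only the libraries compared, 114 with DESeq2 and 3 to 54 without 1 library. At 8 h 667 became 1084 with DESeq2 and 272 to 711 without 1 library, and at 12 h 361 became 799 with only the libraries compared, 683 with DESeq2 and 128 to 257 without 1 library. For the change of the PCI effect 11 became 4 with RLE factors, 57 without the filter, 0 with the block, 29 with only the libraries compared, 185 with DESeq2 and 0 to 37 without 1 library. For CTL at 4 h against START 5734 became 3780 with only the libraries compared. The CTL step from 8 to 12 h went from 1601 to 3005 with only the libraries compared and 2404 with DESeq2. With only the libraries compared the PCI steps went from 4992 to 2663 and from 432 to 743, the latter to 1006 with DESeq2. Library size alone moved the median of all genes from -0.05 to -0.17 in CTL at 4 h. Fen1 had 3 to 50 and Ccnd1 0 to 19 counts per library, and why they were low was not tested.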
